A study of Gallus gallus with 3 samples.

Results

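Compact domains of H3K27me3 without H3K4me3 were described in neural tubes of WT (wild-type) White Leghorn chickens, taken at embryonic stage HH30 (Hamburger and Hamilton). A domain was made by joining H3K27me3 peaks whose gap was at most 5000 bp. It was called compact when it was at least 2000 bp and under 10 kb long. The domains described here were chosen by the positions and widths of the peaks: a compact domain was kept when it shared no base with an H3K4me3 peak, so its width and its lack of H3K4me3 are not findings. On the numbered chromosomes 5535 H3K27me3 peaks gave 3159 domains, of which 1547 were compact, and 593 of these held no H3K4me3 (38.3%; 95% Clopper-Pearson interval 35.9 to 40.8%). When H3K4me3 peaks scoring below the median of their list were left out, 1301 compact domains (84.1%) held none. Both marks were profiled by ChIP-seq (chromatin immunoprecipitation followed by sequencing), each in 1 library from cells fixed in 1% formaldehyde for 10 min; per the labels about 5000000 disaggregated cells went into the fixation, and an Input without immunoprecipitation was also sequenced. Incubation was at 38.5 °C with 70% humidity. The number of embryos pooled is not stated, and the neural tube is a mixture of progenitors, neurons and other cells, so a domain may belong to only some of them. With 1 library for each mark no comparison between samples, no test and no p-value was possible, and the intervals below cover counting error over domains only. Neighbouring domains are not independent of each other.

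H3K27me3 is written by Polycomb repressive complex 2, whose catalytic subunit is EZH2 or EZH1, and is bound by the CBX proteins of Polycomb repressive complex 1. In vertebrates it gathers over CpG-rich promoters of silent developmental genes and can spread from there into broad blocks. H3K4me3 is written by SET1 and MLL family enzymes at promoters that are in use or poised. Places with both marks are called bivalent and are typical of developmental regulator genes, while H3K27me3 without H3K4me3 is typical of genes that are held silent. No gene annotation of galGal4, the assembly of the peak lists, was used here. The domains were therefore not assigned to genes, and the tissue label was not checked against marker genes. The depth of the libraries is unknown, so "without H3K4me3" means that no peak was listed, not that the mark was absent.

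The 593 domains covered 2.75 Mb, which was 17.7% of the length of all 3159 H3K27me3 domains. Their median width was 3966 bp, with quartiles of 2717 and 6210 bp. The share of domains without H3K4me3 changed with width. It was 45.2% among the 1236 domains under 2000 bp (interval 42.4 to 48.0%) and 30.3% among the 631 domains of 2000 to 2999 bp (interval 26.7 to 34.0%). It was 31.6% from 3000 to 3999 bp, 42.0% from 4000 to 5999 bp and 62.4% from 6000 bp to under 8 kb (interval 54.6 to 69.8%). Among the 100 domains from 8 kb to under 10 kb the share was 61% (interval 50.7 to 70.6%), and among the 376 domains of 10 kb or more it was 56.6% (interval 51.5 to 61.7%). A wider domain has more room to meet an H3K4me3 peak. Yet in the compact range, pooled over chromosomes, the share without one was higher in the wider classes. On chromosomes 1 to 5, 48 domains lacked H3K4me3 and 245 held it from 2000 to 2999 bp, against 38 and 23 from 6000 bp to under 8 kb. On chromosomes 11 and above the change between these classes was smaller, from 104 and 99 to 45 and 30.

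**Figure D1:**
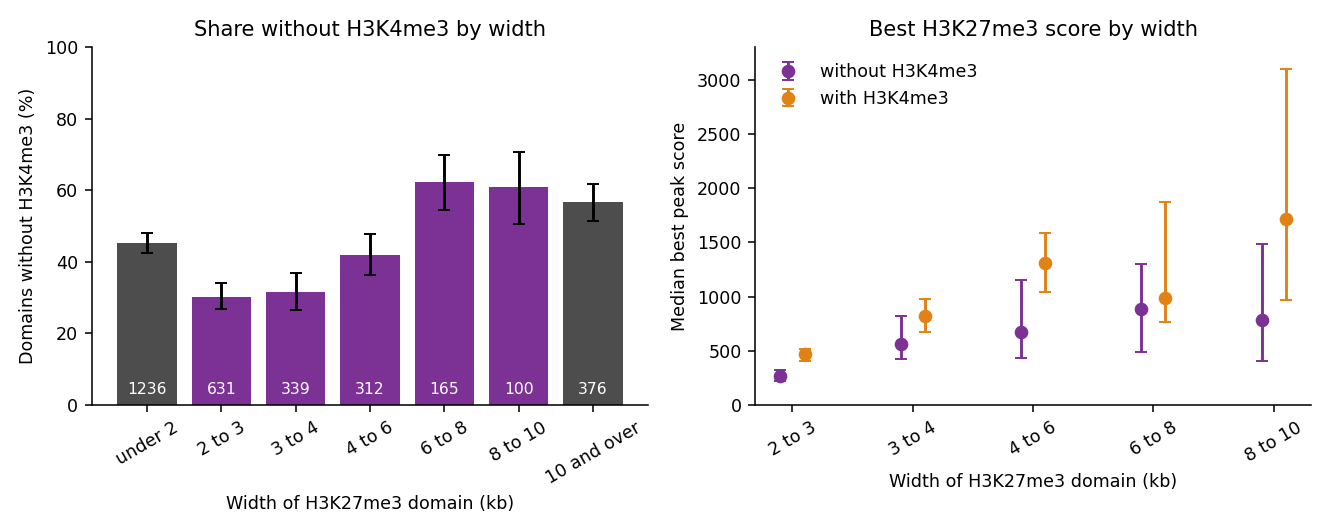
Left, share of H3K27me3 domains that held no H3K4me3 peak (%, vertical axis) by domain width in kb, with the number of domains in each bar and 95% Clopper-Pearson intervals; purple bars are the compact range, and the share goes from 30.3% at 2000 to 2999 bp to 62.4% from 6000 bp to under 8 kb. Right, median of the best H3K27me3 peak score (deposited score, vertical axis) of compact domains without (purple) and with (orange) H3K4me3 in the same width classes, with exact 95% intervals of the median. The median without H3K4me3 is the lower one in each class, with separate intervals only at 2000 to 2999 bp.

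The width limits cut through a continuous range. The narrowest 2 domains inside the lower limit were 2004 bp on chromosome 14 (8623631 to 8625634, best score 682.9) and 2006 bp on chromosome 6 (10727552 to 10729557, best score 183.6). The widest 2 left out below it were 1999 bp on chromosome 27 (671712 to 673710, best score 917.2) and 1995 bp on chromosome 26 (4796416 to 4798410, best score 77.7). Just above the upper limit lay domains of 10019 bp on chromosome 22 (2231356 to 2241374) and 10040 bp on chromosome 28 (1799335 to 1809374). The compact domains that were left out for the least H3K4me3 shared 43 bp with it on chromosome 28 (1184682 to 1189042), 80 bp on chromosome 6 (34487894 to 34490779) and 102 bp on chromosome 13 (1290442 to 1293221).

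About as many of the domains were a single unbroken peak as were strings of peaks. A single peak made up 299 of the 593 domains (50.4%; interval 46.3 to 54.5%), 213 held 2 peaks, 57 held 3, 17 held 4 and 7 held 5. Among the 954 compact domains with H3K4me3, 593 were a single peak (62.2%; interval 59.0 to 65.2%) and none held 5. At like width the shares were close: single peaks made up 79.6% without and 83.4% with H3K4me3 from 2000 to 2999 bp, 71.0 and 63.8% from 3000 to 3999 bp, 34.4 and 32.6% from 4000 to 5999 bp, 17.5 and 21.0% from 6000 bp to under 8 kb, and 13.1 and 15.4% above that. In the 294 domains of several peaks the gaps had a median of 740 bp (quartiles 282 and 1790 bp), and 58.9% of the 406 gaps were at most 1000 bp. Gaps took 29.6% of the length of these domains. In 63 of them peaks covered under 50% of the domain, down to 22.2%, so that these were pairs or strings of small peaks more than solid blocks.

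The most peaks in a domain were 5, and the 7 such domains varied widely. They were 6786 to 9678 bp long and covered by peaks over 43.8 to 78.9% of that length, and their best scores ran from 112.5 to 1352.9 (median 283.8). The 3 longest are given here. On chromosome 1, from 104608175 to 104617852, 5 peaks scoring 52.4 to 144.0 covered 43.8% of 9678 bp. On chromosome 12, from 12119923 to 12129473, 5 peaks scoring 142.8 to 283.1 covered 77.6% of 9551 bp. On chromosome 3, from 15681082 to 15690585, 5 peaks scoring 71.2 to 283.8 covered 73.5% of 9504 bp. The first lay 213 bp from H3K4me3 and 6.60 kb from a long domain, whereas the second was 187 kb from H3K4me3. Of all 7, 3 held a peak scoring above 300, though none of these 3 longest did.

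The widest domains were also strings, but their scores differed widely. The widest, on chromosome 13 from 120751 to 130713 (9963 bp), held 3 peaks whose scores ran from 51.6 to 2034.5. The second, on chromosome 5 from 37512450 to 37522367 (9918 bp), held 3 peaks scoring 209.3 to 499.9. The third, on chromosome 20 from 316163 to 326075 (9913 bp), held 3 peaks scoring 53.5 to 924.6. The fourth, on chromosome 6 from 16367883 to 16377763 (9881 bp), was covered over 95.8% of its length by 3 peaks scoring 1553.5 to 3100. The fifth, on chromosome 12 from 9163453 to 9173325 (9873 bp), scored at most 280.9 and lay 6.87 kb from a long domain. Width alone thus did not set the score.

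The best score of a domain, the highest deposited score of any of its peaks, was lower without H3K4me3 than with it in the median. Its scale is unnamed, so medians were compared within a list only, and their ratio says nothing of enrichment. The median best score was 461.4 for the domains without H3K4me3 (exact interval of the median 376.1 to 553.2; quartiles 168.5 and 1320.0) and 693.4 for compact domains with it (interval 637.1 to 760.2; quartiles 332.1 and 1383.6), a ratio of 0.665. The order held in each of 5 width classes, but the intervals were separate only from 2000 to 2999 bp. There the medians were 263.7 (interval 219.8 to 320.9) and 471.7 (interval 408.0 to 519.0). From 4000 to 5999 bp they were 676.3 (interval 432.0 to 1157.2) and 1311.5 (interval 1038.4 to 1587.9). Pooled over widths, the gap was seen among strings and hardly among single peaks. Among single-peak domains the medians were 660.6 without and 676.5 with H3K4me3, and among domains of several peaks they were 337.7 and 706.4. Widths were not matched there: single-peak domains had a median width of 2961 bp without and 2759 bp with H3K4me3. Domains of 2000 to 2999 bp, where the medians differed, were mostly single peaks (79.6 and 83.4%). The gap could therefore not be placed in the strings alone. When H3K27me3 peaks scoring below their median (223.0) were left out, the ratio was 1.00 (bounds from the intervals of the medians 0.833 to 1.28), and when H3K4me3 peaks below theirs (1104.2) were left out it was 1.26 (bounds 0.998 to 1.54), so the difference was not seen there.

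Pooled over widths, domains without H3K4me3 made up a larger part among low scores and at the tied top score than between them. Of the 100 compact domains whose best score was under 100, 64 lacked H3K4me3 (64%; interval 53.8 to 73.4%). The share was 48.1% for best scores from 100 to 300 (interval 42.7 to 53.5%), 30.9% from 300 to 1000 (interval 27.1 to 34.9%), 32.1% from 1000 to 2000 and 30.95% from 2000 to 3100. It was 48.6% for scores of 3100 and above (53 domains, interval 38.9 to 58.4%), and these 53 had a median width of 6769 bp. At like width the excess at the top score was not seen. A best score of exactly 3100 was held by 11.45% without and 11.05% with H3K4me3 from 4000 to 5999 bp. The shares were 17.5 and 19.4% from 6000 bp to under 8 kb, and 26.2 and 41.0% above that. Few narrower domains reached it. Across the 593 domains, width and best score had a Spearman correlation of 0.31, and the width of the widest peak and best score one of 0.68; domains are not independent replicates, and both values come from the same peak calls.

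The 53 domains with a best score of 3100 or above lay at all distances from long blocks of the mark. A domain of 10 kb or more was 5.23 to 8061 kb away, with a median of 589 kb (interval 205.5 to 936 kb), and within 50 kb for 11 of them (20.8%; interval 10.8 to 34.1%). The highest, on chromosome 8 from 13076007 to 13083949 (7943 bp), held 3 peaks with a best score of 3227.0 and lay 528 kb from the nearest domain of 10 kb or more. The other 52 had a best score of exactly 3100, a value shared by 469 peaks of the list. The longest peak cover among these was on chromosome 8 from 28600726 to 28610481, 1 unbroken peak of 9756 bp that lay 936 kb from a long domain and 60.5 kb from H3K4me3. It was followed by domains on chromosome 24 from 3090677 to 3100282 (9606 bp, covered over 99.7%), the chromosome 6 domain at 16367883 named above, and chromosome 1 from 41738583 to 41748040 (9458 bp, covered over 99.9%). Their distances to a long domain were 1355, 133.5 and 3011 kb. The chromosome 24 domain had no other H3K27me3 domain of any size within 603 kb.

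The domains lay at a wide range of distances from H3K4me3, mostly within 50 kb. The median distance to the nearest H3K4me3 peak was 21.8 kb (exact interval 18.1 to 24.5 kb), with quartiles of 8.27 and 52.2 kb. It was 47.6 kb (interval 42.9 to 53.6 kb) for the larger set obtained when H3K4me3 peaks below their median score were left out. H3K4me3 lay within 1 kb of 26 domains (4.38%), at 1 to 5 kb of 70, at 5 to 20 kb of 188, at 20 to 50 kb of 155 and at 50 to 100 kb of 87. It was over 100 kb away from 67 (11.3%). The nearest peak was on the side of lower coordinates for 300 domains and of higher coordinates for 293. For short domains without H3K4me3 (under 2000 bp) the median distance was 30.3 kb (interval 26.9 to 33.9 kb), and for long ones (10 kb or more) it was 27.9 kb (interval 23.7 to 35.1 kb). The distance was smallest on chromosomes 11 and above, with a median of 16.4 kb (interval 14.4 to 21.2 kb), against 26.5 kb on chromosomes 6 to 10 (interval 17.2 to 38.0 kb) and 27.5 kb on chromosomes 1 to 5 (interval 22.0 to 32.9 kb). H3K4me3 peaks themselves numbered 21.3, 13.7 and 9.43 per Mb of span in these 3 classes.

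**Figure D2:**
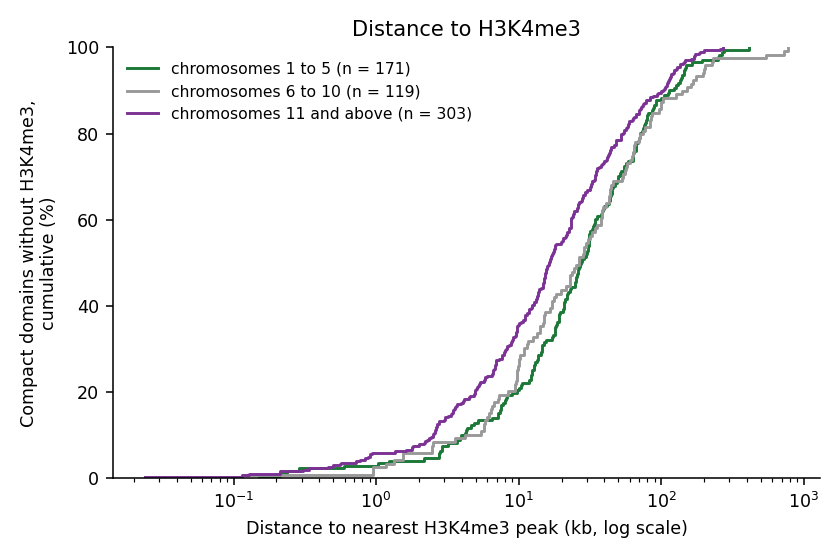
Cumulative share (%, vertical axis) of the 593 compact domains without H3K4me3 against the distance to the nearest H3K4me3 peak (kb, log axis), by chromosome class. The medians are 27.5 kb on chromosomes 1 to 5, 26.5 kb on chromosomes 6 to 10 and 16.4 kb on chromosomes 11 and above.

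The closest listed peaks stopped just short of sharing a base. On chromosome 20, from 10845444 to 10848541, 24 bp separated a domain of 3098 bp (best score 430.6) from an H3K4me3 peak scoring 627.8. A domain of 9818 bp on chromosome 20 (453348 to 463165) was 115 bp from H3K4me3, and one of 2457 bp on chromosome 7 (6687835 to 6690291) was 127 bp from it. On chromosome 17, from 5652149 to 5661435, a domain of 9287 bp with a best score of 3100 began 129 bp from H3K4me3, and on chromosome 5, from 35307209 to 35309424, a domain of 2216 bp began 151 bp from it. None of these 5 H3K4me3 peaks, 508 to 2213 bp wide, overlapped another H3K27me3 peak, but the rule fixed this in advance. An H3K27me3 peak over one of them would have been within the merging gap of 5000 bp. The joined domain would then have held H3K4me3 and been left out. Peak edges this close, from 1 library for each mark, do not show whether the marks themselves overlapped there.

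The 5 farthest domains mostly had low scores. On chromosome 8 a domain from 37001 to 40714 (3714 bp, 1 peak, score 2559.2) was 775 kb from H3K4me3. The next, on chromosome 8 from 8923136 to 8928711, was 724 kb away and scored 64.2, and the third, on chromosome 8 from 17039545 to 17045335, was 548 kb away, scored at most 78.8 and was covered over 22.7% of its length. Domains on chromosome 2 (63800506 to 63803734, 412 kb) and chromosome 1 (62606477 to 62608735, 278 kb) scored at most 88.3 and 71.1. The first of the 5 alone had a high score, and it lay near the start of its chromosome. Of the 67 domains over 100 kb from H3K4me3, spread over 21 chromosomes, 15 scored under 100 (22.4%, against 10.8% of all 593). A score of 1000 or more was held by 14 of the 67. Their upper quartile of best score was 598.7, against 1320.0 for all 593.

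Score and structure changed with distance from H3K4me3. The median best score was 814.2 for the 26 domains within 1 kb of H3K4me3 (interval 430.6 to 1510.6) and 639.9 at 1 to 5 kb (interval 423.8 to 1040.1). It was 596.7 at 5 to 20 kb, 398.4 at 20 to 50 kb and 366.8 at 50 to 100 kb, and 187.2 beyond 100 kb (interval 133.2 to 247.2). Single-peak domains made up 53.8% within 1 kb, 61.4% at 1 to 5 kb and 23.9% beyond 100 kb. Median width was 4253 bp within 1 kb, 3541 bp at 1 to 5 kb and 5035 bp beyond 100 kb, so strings were commonest among the distant domains while width showed no steady order. Over the 593 domains the Spearman correlation of best score with distance was -0.175 and that of width with distance 0.12, so each was weak.

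The H3K4me3 peaks nearest to these domains carried H3K27me3 somewhat more often than other H3K4me3 peaks did, with separate intervals in 1 of 3 chromosome classes. The nearest peaks were 520 distinct peaks, and 130 of them overlapped an H3K27me3 peak of another domain (25%; interval 21.3 to 29.0%). Of the other 10782 H3K4me3 peaks on the numbered chromosomes, 1925 did (17.9%; interval 17.1 to 18.6%). The 2 groups were not alike by construction. H3K4me3 lay within 5 kb of 96 domains, and an H3K27me3 peak over such a close peak would mostly have been joined to the domain. That domain would then have been left out, so the rule limited the share among the nearest peaks. Within chromosome classes the shares were 22.7 and 18.6% on chromosomes 1 to 5, 31.1 and 20.6% on chromosomes 6 to 10, and 23.8 and 15.2% on chromosomes 11 and above. The intervals overlapped on chromosomes 1 to 5 (16.4 to 30.2% and 17.6 to 19.6%) and barely on chromosomes 6 to 10 (22.49 to 40.9% and 18.8 to 22.54%), and not on chromosomes 11 and above (18.8 to 29.5% and 13.96 to 16.4%). The median H3K4me3 score was 979.7 for the nearest peaks (interval 809.1 to 1143.8) and 1120.2 for the others (interval 1080.4 to 1154.0), with overlapping intervals.

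The domains sat in long stretches between neighbouring H3K4me3 peaks. H3K4me3 peaks lay on both sides of 587 domains, which fell in 496 of the 11274 such stretches. Stretches with a domain had a median length of 92.6 kb, against 29.8 kb for all stretches. Longer stretches have more room for a domain, and only 9527 stretches were long enough to hold one (2 kb or more). A longer median was therefore built into the comparison. In 351 of the 496 stretches (70.8%) the compact domain was the only H3K27me3 domain. In 62 stretches there were 2 or more compact domains, 153 in all, and 61 stretches also held a long domain. H3K27me3 domains that hold H3K4me3 cannot lie inside such a stretch, so a domain that is alone in it may still have one close by beyond its ends.

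Compact domains without H3K4me3 lay closer to other H3K27me3 than compact domains with it. The nearest other domain of any size was 30.6 kb away in the median (interval 25.9 to 35.4 kb), against 85.9 kb (interval 78.7 to 100.4 kb) for the 954 compact domains with H3K4me3. Short domains had the same order, with medians of 37.1 kb without and 124.3 kb with H3K4me3. Long domains lay close to another domain in both cases. Their medians were 20.3 kb without (interval 14.5 to 26.6 kb) and 26.65 kb with H3K4me3 (interval 22.85 to 41.4 kb), with overlapping intervals. Another domain lay within 50 kb of 374 domains without H3K4me3 (63.1%; interval 59.0 to 67.0%) and of 326 with it (34.2%; interval 31.2 to 37.3%). The smallest distance possible is just over 5 kb, since closer peaks were joined. The order was the same within chromosome classes, with shares of 53.2 and 20.5% on chromosomes 1 to 5, 67.2 and 45.4% on chromosomes 6 to 10, and 67.0 and 49.7% on chromosomes 11 and above. It was also the same in each of the 5 width classes, at 58.1 and 27.5% for 2000 to 2999 bp and at 68.9 and 56.4% from 8 kb to under 10 kb. Only in this last class did the intervals overlap (55.7 to 80.1% and 39.6 to 72.2%).

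The nearest domain of 10 kb or more was also closer. Its median distance was 276 kb without H3K4me3 (interval 227 to 343 kb; quartiles 67.9 and 1011 kb; 589 domains, since chromosome 25 with 4 of the domains had no long domain), against 907 kb with H3K4me3 (interval 769 to 1032 kb). A long domain lay within 50 kb of 129 domains without H3K4me3 (21.8%; interval 18.5 to 25.3%) and of 68 with it (7.13%; interval 5.58 to 8.95%). The same order was seen in short domains (498 kb without and 1203 kb with H3K4me3) and in long ones (143.8 and 320.5 kb, with overlapping intervals). For compact domains the medians were 600 and 1648 kb on chromosomes 1 to 5, 271 and 667 kb on chromosomes 6 to 10, and 191 and 343 kb on chromosomes 11 and above. Their intervals overlapped on chromosomes 6 to 10 (195 to 640 kb and 462 to 862 kb) and not in the other classes. Distance to a long domain and distance to H3K4me3 were almost unrelated across the domains, with a Spearman correlation of 0.08.

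**Figure D3:**
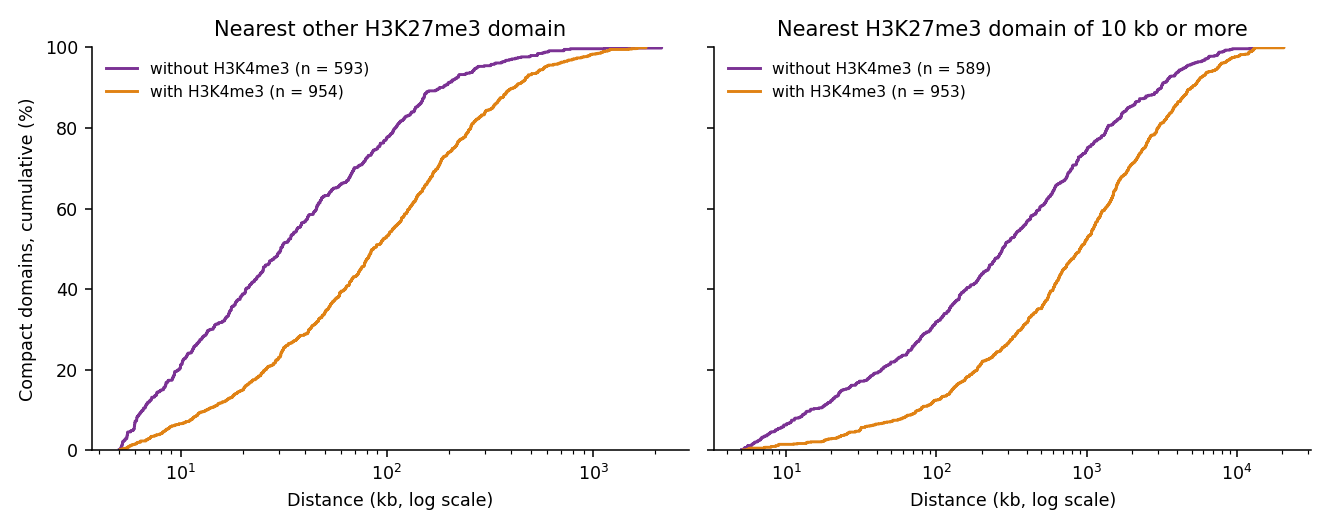
Cumulative share (%, vertical axes) of compact H3K27me3 domains without (purple) and with (orange) H3K4me3 against the distance (kb, log axes) to the nearest other H3K27me3 domain (left) and to the nearest H3K27me3 domain of 10 kb or more (right). Without H3K4me3 the medians are 30.6 and 276 kb, and with it they are 85.9 and 907 kb.

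The extremes of this distance were far apart. On chromosome 3 the domain from 70811326 to 70816821 was 5.04 kb from a long domain of 13.3 kb that held H3K4me3, and it was also 593 bp from an H3K4me3 peak. On chromosome 13 the domain from 75120 to 83195 was 5.22 kb from a long domain, and that from 12665103 to 12671528, 1 peak with a score of 3100, was 5.23 kb from a long domain of 26.6 kb. These 3 stood just outside the merging gap and would have been parts of long domains with a slightly larger one. At the other end, the domain on chromosome 1 from 91441881 to 91444584 was 13097 kb from a long domain, that on chromosome 4 from 16805276 to 16810439 was 12274 kb away, and that on chromosome 3 from 91334746 to 91341117 was 9352 kb away. Each of the last 3 had as its nearest domain a compact one with H3K4me3.

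Pooled over chromosomes, domains without H3K4me3 tended to have each other as neighbours. The nearest H3K27me3 domain was itself without H3K4me3 for 326 of the 593 (55.0%; interval 50.9 to 59.0%), whereas 43.2% of all 3159 domains lacked H3K4me3. For compact domains with H3K4me3 the nearest one lacked it in 41.0% of cases (interval 37.8 to 44.2%). On chromosomes 1 to 5 the share for domains without H3K4me3 was 50.3% (interval 42.6 to 58.0%), beside 33.8% of all domains there. On chromosomes 11 and above it was 58.4% (interval 52.6 to 64.0%), beside 55.6% of all domains there (interval 52.7 to 58.5%), so no such tendency could be made out on those chromosomes. When compact domains without H3K4me3 were chained across gaps of at most 50 kb, 425 (71.7%) stood alone, 104 were in pairs and 64 were in 17 chains of 3 or more.

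The domains were spread over 27 of the 28 numbered chromosomes in the lists, with the highest densities on small ones: 5.38 per Mb on chromosome 27, 3.97 on chromosome 26 and 3.64 on chromosome 24. Chromosome 25, with a span of 2.18 Mb, had only 4 of the domains, or 1.83 per Mb. The chromosome with none of them, chromosome 16, had a span of only 0.484 Mb and 1 compact domain, which held H3K4me3. The chicken genome is made of large macrochromosomes and many small, gene-dense microchromosomes; here chromosomes 1 to 5 were taken as the first class and 11 and above as the second. Microchromosomes held 303 of the 593 domains (51.1%; interval 47.0 to 55.2%) in 18.6% of the span, a chromosome's span being the end of its last listed peak of either mark. Their density was 1.77 domains per Mb, against 0.831 on chromosomes 6 to 10 and 0.283 on macrochromosomes, a ratio of 6.25 between the outer classes. Without the densest window, on chromosome 27, the ratio was 5.91. The same ratio was 2.15 for compact domains with H3K4me3, 2.26 for H3K4me3 peaks and 4.29 for long H3K27me3 domains.

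The share of compact domains that lacked H3K4me3 changed accordingly. It was 26.3% on macrochromosomes (interval 23.0 to 29.9%), 39.4% on chromosomes 6 to 10 (interval 33.9 to 45.2%) and 50.9% on microchromosomes (interval 46.8 to 55.0%). When H3K4me3 peaks below their median score were left out, it was 80.8% on macrochromosomes (interval 77.5 to 83.7%) and 87.1% on microchromosomes (interval 84.1 to 89.7%). Most of the contrast in percent was then gone, though the 2 intervals still did not overlap. Shares this high leave less room for a contrast. The contrast also differed with width. From 2000 to 2999 bp, 48 domains lacked H3K4me3 and 245 held it on macrochromosomes, against 104 and 99 on microchromosomes. From 6000 bp to under 8 kb the counts were close in proportion, at 38 and 23 against 45 and 30. From 8 kb to under 10 kb they were 16 and 15 against 32 and 15. The lowest shares on chromosomes with 10 or more compact domains were 21.1% on chromosome 3 (27 of 128) and 21.4% on chromosome 2, and the highest were 68.8% on chromosome 22 (11 of 16; interval 41.3 to 89.0%) and 66.7% on chromosome 28 (interval 43.0 to 85.4%). Chromosomes 24, 26 and 27 had 63.9, 63.6 and 63.6%. Among the microchromosomes, chromosome 11 stood low, with 8 domains, 0.413 per Mb and a share of 29.6% (interval 13.8 to 50.2%), and its domains lay 105 kb from H3K4me3 in the median. Over the 26 chromosomes with 10 or more compact domains, span and this share had a Spearman correlation of -0.86; the chromosomes also differ in the density of H3K4me3 peaks, whose part in the relation was not tested.

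**Figure D4:**
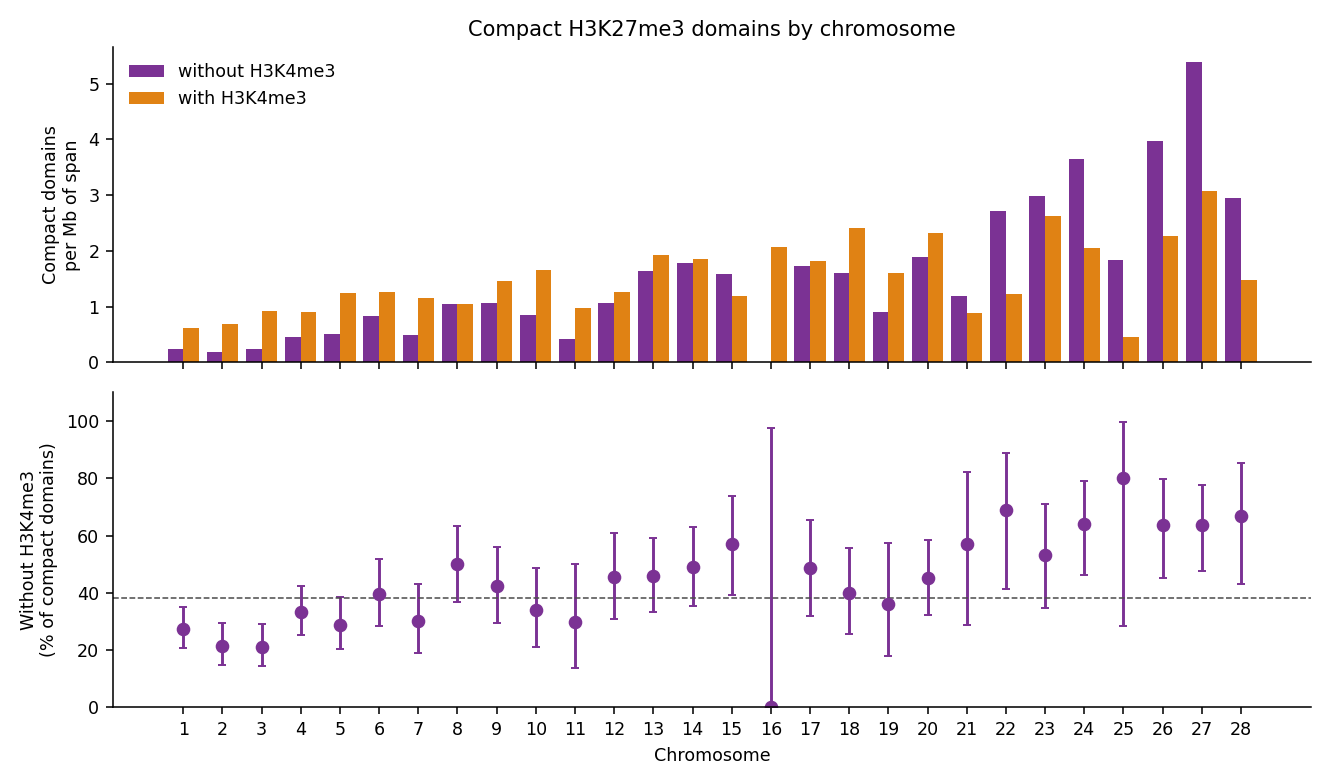
Upper, compact H3K27me3 domains per Mb of chromosome span without (purple) and with (orange) H3K4me3. Lower, share of compact domains without H3K4me3 (%) with 95% Clopper-Pearson intervals, and a dashed line at the 38.3% of all; the whole intervals of chromosomes 1 to 3 lie below the line and those of chromosomes 15, 22, 24, 26, 27 and 28 above it.

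Domains without H3K4me3 were also more often near the ends of the mapped span. Of the 593, 122 lay within 1 Mb of the start of a chromosome or of its last listed peak (20.6%; interval 17.4 to 24.1%), against 105 of the 954 with H3K4me3 (11.01%; interval 9.09 to 13.2%). A small chromosome has more of its length near an end. Within classes the shares were 8.19 and 2.30% on macrochromosomes (intervals 4.55 to 13.4% and 1.15 to 4.07%), 13.4 and 12.02% on chromosomes 6 to 10, and 30.4 and 24.7% on microchromosomes (intervals 25.2 to 35.9% and 19.8 to 30.02%). The intervals overlapped on chromosomes 6 to 10 and on microchromosomes, and not on macrochromosomes. The first Mb of chromosome 27 alone held 18 of the 92 such domains on microchromosomes, and 2 of the 72 with H3K4me3. Short domains had the same order (18.5% without and 7.38% with H3K4me3), as had long ones (19.7 and 15.95%, with overlapping intervals).

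The domains were found in a minority of windows. The counts were not set beside those of other domains or of an even spread, and density differed with chromosome class. Of 933 windows of 1 Mb, 296 held at least 1 compact domain without H3K4me3, and 69 windows with 3 or more held 299 of the 593 domains (50.4%). The densest was the first Mb of chromosome 27, with 18 such domains, 2 compact domains with H3K4me3, 2 long ones and 19 short ones, but only 6 H3K4me3 peaks. The 18 domains were 2011 to 9408 bp wide, with best scores of 92.1 to 1107.3 (median 396.5) and distances to H3K4me3 of 6.82 to 169.8 kb (median 51.8 kb). Of these, 11 lay in 1 stretch of 347 kb without H3K4me3, from 211882 to 558803, and 13 formed 1 chain from 346284 to 654369. Of the 6 H3K4me3 peaks, 1 scored 2150.3 and 5 scored 50.6 to 87.6. The other 10 domains of chromosome 27 had a median best score of 813.8 and lay 7.05 kb from H3K4me3 in the median.

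**Figure D5:**
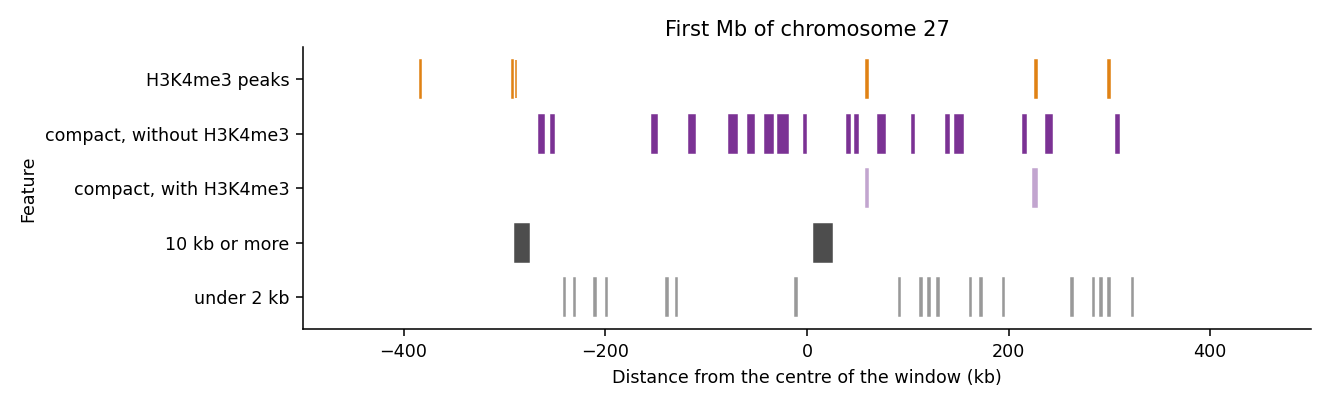
Positions of H3K4me3 peaks and of H3K27me3 domains by kind in the first Mb of chromosome 27, as the distance in kb from the centre of the window. The 18 compact domains without H3K4me3 form a row across much of the window, beside 6 H3K4me3 peaks.

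Other dense windows looked different. The window from 1 to 2 Mb on chromosome 4 held 9 domains without H3K4me3 amid 36 H3K4me3 peaks. These 9 had best scores of 235.7 to 2650.5 (median 1257.5) and lay 2.79 to 18.0 kb from H3K4me3 (median 7.19 kb), so they were interspersed with H3K4me3 and had a higher median score than the chromosome 27 group. Windows on chromosome 18 (10 to 11 Mb), chromosome 23 (3 to 4 Mb) and chromosome 24 (2 to 3 Mb) held 7 each. The chromosome 18 group lay 2.78 kb from H3K4me3 in the median, amid 50 H3K4me3 peaks. The chromosome 24 group lay 124 kb from H3K4me3 in the median with a median best score of 192.7, and 5 domains of chromosome 24 shared 1 stretch of 360 kb without H3K4me3, from 2002299 to 2362807. The compact domains thus occurred both close among H3K4me3 peaks and in long stretches without any.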

How the data were processed

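ChIP-seq for H3K4me3 and H3K27me3 gave 1 library each; the Input has no peak list and was not used here. Per the file headers the authors ran MACS in Galaxy to call peaks. Per the submitters' processing notes BWA, MACS2 and the build galGal4 were used, with no version given. The control of the calls and the read filters are not given in the sources used here. Each peak has a deposited score from MACS, whose scale the files leave unnamed; exactly 3100 was given to 469 H3K27me3 peaks. Such scores may depend on depth and width.

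H3K27me3 peaks on numbered chromosomes were merged across gaps of at most 5000 bp with Python 3.11.15 and numpy 2.4.6. Distances count the bases between edges, and coordinates start from 1. Shares carry Clopper-Pearson intervals (scipy 1.17.1) and medians carry exact order-statistic intervals, both at 95%. Merging, overlap and intervals were tested on simulated data. The rule for the domains, the named regions and the measures were chosen with earlier results of these data known. Named were the widest, highest-scoring, farthest and nearest domains, those of most peaks, those beside the limits, and the densest windows of 1 Mb. Alternatives covered merging, scores, overlap, width and sequences.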

Additional observations from a re-analysis of the deposited data

How the results depend on the processing

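There were 14 results under 11 alternatives, but the share of single peaks was left out for single-peak domains, where it is fixed in advance. Of the values, 103 stayed within the interval of the reported value (or within 1.5 times a count). Another 48 moved beyond it, and 2 crossed from below 1 to above it. The causes of these shifts were not tested, beyond what each alternative leaves out by construction. The 2 that crossed were the ratio of median best scores without over with H3K4me3 (0.665), which was 1.00 (bounds 0.833 to 1.28) with H3K27me3 peaks at or above their median score and 1.26 (bounds 0.998 to 1.54) with H3K4me3 peaks at or above theirs. Both bounds include 1, so the difference was lost more than turned. In single-peak domains, not matched for width, it was 0.977.

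Merging within 1000 bp gave 922 domains, a share without H3K4me3 of 47.5% (34.2% on macrochromosomes, 59.8% on microchromosomes), a median width of 3493 bp, 57.4% single peaks, a median distance to a long domain of 490 kb, and another domain within 50 kb for 82% without and 42% with H3K4me3. Merging within 10000 bp gave a share of 34.6% (46.6% on microchromosomes) and another domain within 50 kb for 53.2 and 29.7%. Keeping H3K27me3 peaks at or above the median score gave 72.8% single peaks, 17.1 kb to H3K4me3, 423 kb to a long domain, a best score of 941.2, and neighbours within 50 kb for 47.4 and 23.9%. Counting only H3K4me3 peaks at or above the median score had the widest effect: 1301 domains, a share of 84.1% (80.8 and 87.1% on macro- and microchromosomes), 3412 bp, 56.1% single peaks, 47.6 kb to H3K4me3, 543.5 kb to a long domain, 39.8% on microchromosomes, a best score of 649.0, and neighbours for 49.1 and 24.8%. The number of domains called without H3K4me3 thus depends on whether H3K4me3 peaks below the median score (1104.2) are counted. Leaving out H3K4me3 peaks can only raise this number, and no lower limit of score was tried.

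Widths from 3000 bp to under 8 kb gave 341 domains, a share of 41.8% (32.8% on macrochromosomes), 5081 bp, 40.8% single peaks, a best score of 668.5, and neighbours for 38.5% of domains with H3K4me3. With chromosome Z, 46.9% lay on microchromosomes, and without chromosome 1, 55.3% did. Single-peak domains, an alternative chosen after seeing the data, gave 299 domains, a share of 33.5% (18.5% on macrochromosomes), 2961 bp, 15.9 kb to H3K4me3, 56.9% on microchromosomes and a best score of 660.6. Leaving out the first Mb of chromosome 27, also chosen after seeing the data, moved none of the 14 beyond its interval, and neither did counting H3K4me3 within 1000 bp, or only from 10% of the domain, as shared. The ratio of distances to a long domain (0.304) stayed between 0.293 and 0.439 under all 11. No paired analysis was possible because each mark had 1 library. The lists hold no read counts, so how depth limits the calls is unknown.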

Other observations

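The same rule on sequences other than the numbered chromosomes gave further compact domains without H3K4me3. On chromosome Z, 53 of 112 compact H3K27me3 domains lacked H3K4me3 (47.3%; 95% Clopper-Pearson interval 37.8 to 57.0%). Their median best score was 96.8 and their median distance to H3K4me3 was 122 kb. On the remaining sequences 48 of 62 compact domains lacked it (77.4%; interval 65.0 to 87.1%), spread over 43 sequences, of which many hold no H3K4me3 peak: a distance could be measured for 12 domains, with a median of 4.28 kb.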
